A study of Mus musculus with 6 samples.

Results

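Splicing regulators and cold-inducible RNA-binding proteins were examined in the pituitary gland of male mice, in 3 libraries labelled HFD and 3 labelled RD. The set was defined by symbol, with earlier results of these data known. It takes the SR proteins (SRSF), the hnRNP family, the numbered RBM genes with RBMX and its relatives, the SR protein kinases CLK1 to CLK4 and SRPK1 to SRPK3, the TRA2, RBFOX, CELF, NOVA, PTBP and MBNL families, and CIRBP. It holds 98 of the 16736 rows of the deposited count table, under 97 different symbols, since RBM15 stands on 2 rows. Of these rows 94 had enough counts to be tested, among 13873 tested genes in all. The HFD mice and the RD mice were treated alike in being fasted for 16 h and then fed for 4 h before the gland was taken, and all were male. The series' title places the comparison in obesity and the unfolded protein response. The sources used here give neither strain nor age, neither the make-up of the diets nor the housing temperature. They also leave unsaid whether each library came from its own mouse, so a p-value here reflects the scatter among libraries, which may be technical.

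Pre-mRNA splicing is carried out by the spliceosome, and which exons it joins is set by RNA-binding proteins that sit on exons and introns nearby. SR proteins mostly favour the use of an exon, hnRNP proteins often oppose it, and the CLK and SRPK kinases phosphorylate the arginine-serine tails of SR proteins. RBFOX, CELF, NOVA, PTBP and MBNL proteins set tissue-specific exon choice, in neurons and muscle above all, and pituitary endocrine cells share part of this neuronal programme. CIRBP and RBM3 are small glycine-rich RNA-binding proteins whose transcripts are known to rise in mammalian cells under mild cooling and to fall under warming. Many of these genes limit their own output by splicing to unproductive transcripts, and counts summed per gene cannot separate productive from unproductive transcripts.

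Totals of the listed rows ranged from 14185372 to 14384933 counts in the HFD libraries and from 15702214 to 18111345 counts in the RD libraries. Members together took 1.2% to 1.24% of these counts in HFD and 1.15% to 1.19% in RD. These shares are unscaled, so they also depend on the level of abundant genes such as GH1, which was lower in HFD (below). Levels below are TMM-scaled CPM, that is counts relative to the library total after edgeR's TMM scaling, and changes are log2(HFD/RD) with the standard error from edgeR's quasi-likelihood test. A gene is referred to as called where its p-value, adjusted by the Benjamini-Hochberg method over all 13873 tested genes, was under 0.05. The hormone genes GH1, PRL and POMC each had at least 5526 CPM in every library. Endocrine cell markers of the pituitary held 3 called higher and 5 called lower of 10 tested, and their sums were 58744 to 65517 CPM in HFD and 85615 to 96190 CPM in RD. Most of these sums was GH1, which was called lower, with means of 38005 CPM in HFD and 67336 CPM in RD. The markers called higher were TSHB, CGA and NR5A1, so the list did not move in 1 direction. Of the lists of other cell types, myelin and glial markers held 2 called of 8 tested, both higher in HFD. Their summed level overlapped between groups, at 131 to 307 CPM in HFD and 135 to 204 CPM in RD. Neuron and posterior lobe markers held 0 called of 9 by edgeR, DESeq2 and limma-voom (1 at an unadjusted p under 0.05), and their sums were 414 to 480 CPM in HFD and 443 to 476 CPM in RD. MAP2 made up most of these sums, at 366, 426 and 402 CPM in HFD and 413, 399 and 417 CPM in RD. The posterior lobe hormone genes AVP and OXT had group means of 0.849 to 3.51 CPM, so the sums say little of posterior lobe content. For endothelium, with 0 called of 7 by the same tools and 1 at an unadjusted p under 0.05, the sums were 377 to 406 CPM in HFD and 368 to 387 CPM in RD. Immune cell markers had 1 called of 6 and sums of 67 to 76.7 CPM in HFD and 53.6 to 75.4 CPM in RD. Folliculostellate and stem cell markers had 1 called of 5 (ALDH1A2) and sums of 128 to 144 CPM in HFD and 112 to 122 CPM in RD, which do not overlap. Fibroblast and muscle markers (0 of 6) and erythrocyte markers (0 of 2) held no call by these tools and 0 at an unadjusted p under 0.05, with sums of 141 to 213 CPM in HFD and 183 to 209 CPM in RD for fibroblasts and muscle, and of 53 to 121 CPM in HFD and 63.2 to 103 CPM in RD for erythrocytes. No listed marker found in the table was at 0 in all 6 libraries. In bulk tissue a smaller number of cells of a type cannot be told apart from less RNA per cell, and the part of cell composition in the results below was not tested.

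Of the 94 tested members 15 were called, 10 higher and 5 lower in HFD, which is 16% of them. Among all tested genes 10.5% were called, 5.87% higher and 4.61% lower. The members called higher made up 10.6% of those tested and the members called lower 5.32%. CIRBP alone among the called members changed by at least 2-fold, where 1.9% of all tested genes were both called and changed by at least 2-fold, and the other 9 rises lay between 1.19-fold and 1.71-fold. The falls left between 0.764 and 0.846 of the RD level. The median log2 change of the members was -0.03, against 0.00 for all tested genes, and the median size of a change was 0.12, against 0.16. Their median standard error was 0.09, against 0.12 for all tested genes, so the shares called are not compared at equal precision. For 74 of the 94 members the 95% interval of the log2 change lay within -0.5 to 0.5. The groups did not overlap for 35 members, or 37.2%, against 32.5% of all tested genes. An unadjusted p under 0.05 was found for 30 members, against 26.5% of all tested genes. With library size as the only scaling, 13 members were called higher and 3 lower, and the rises made up 72.5% of the calls over all genes, where TMM gave 56%.

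**Figure D1:**
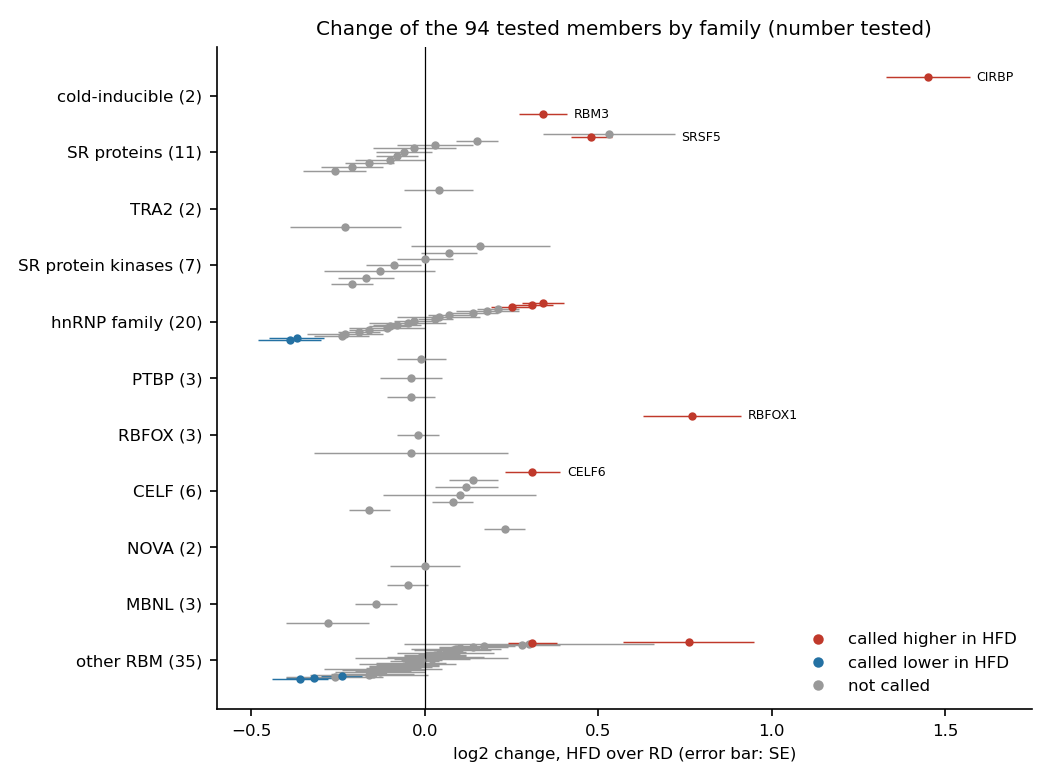
Log2 change (HFD over RD) of each of the 94 tested members, with its standard error as a bar, by family, with the number tested in brackets; red marks the 10 called higher, blue the 5 called lower and grey the 79 not called. CIRBP stands at 1.45, RBM11 at 0.76 and RBFOX1 at 0.77, and the rest lie between -0.39 and 0.53.

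Both cold-inducible genes rose in HFD pituitaries. CIRBP, whose protein binds stress-responsive transcripts and affects their stability and polyadenylation, stood at 112, 122 and 130 CPM in the HFD libraries and at 50.1, 47.1 and 36.2 CPM in the RD libraries. The lowest HFD library was above the highest RD library by a wide margin. The change was 1.45 ± 0.12 on the log2 scale, or 2.73-fold (95% interval 1.18 to 1.72 in log2, adjusted p = 0.000616), and it was called under each of the 18 other settings tried, the 6 with a library left out included. RBM3, a close relative of CIRBP that is known in mouse neurons for its induction on cooling, had 83.1, 82.1 and 78.7 CPM in HFD libraries and 62.1, 65.4 and 65.1 CPM in RD libraries. These values do not overlap either, but the rise was smaller, 0.34 ± 0.07 in log2 or 1.27-fold (adjusted p = 0.0172). Leaving out any 1 of the HFD libraries ended the call of RBM3 (adjusted p up to 0.0776), and leaving out any 1 of the RD libraries did not. Per kilobase of the longest annotated transcript, CIRBP averaged 91.6 CPM in HFD and 33.7 CPM in RD and took rank 5 among the tested members in HFD and rank 33 in RD.

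The heat shock genes of the same libraries lay on the opposite side. Of 20 listed heat shock genes, 16 were called lower and 0 higher in HFD, against 4.61% called lower among all tested genes. This list was made with earlier results of these data known, and the median log2 change of its genes was -0.74. Their summed level was 3990, 3497 and 3404 CPM in HFD replicates 1, 2 and 3, and 6918, 5971 and 8412 CPM in RD replicates 1, 2 and 3. HSP90AA1, an inducible HSP90 gene, had 403, 345 and 340 CPM in HFD and 976, 820 and 1394 CPM in RD (adjusted p = 0.00122). RD replicate 3 held both the highest heat shock sum and the lowest CIRBP level, and HFD replicate 3 the lowest heat shock sum and the highest CIRBP level. Within the RD libraries the order was not kept throughout, since RD replicate 2, with the lowest heat shock sum of the group, had less CIRBP than RD replicate 1. RBM3 was lowest in HFD replicate 3 among the HFD libraries and in RD replicate 1 among the RD libraries. Whether the heat shock and the cold-inducible changes are linked was not tested.

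**Figure D2:**
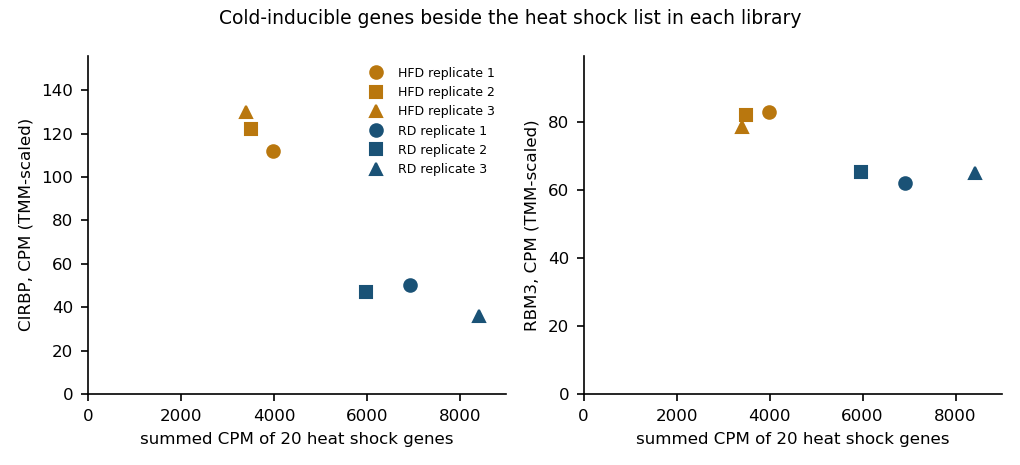
Level of CIRBP (left) and RBM3 (right) in TMM-scaled CPM against the summed TMM-scaled CPM of 20 heat shock genes, 1 point per library, with orange for HFD and blue for RD. The HFD libraries sit at sums of 3404 to 3990 CPM and the RD libraries at 5971 to 8412 CPM, and CIRBP is between 112 and 130 CPM in HFD and between 36.2 and 50.1 CPM in RD.

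The CIRBP gene lies on chromosome 10 of mm10 (GRCm38), 80165985 to 80172786 on the plus strand, and GENCODE M21 annotates 2 coding transcripts, 1 subject to nonsense-mediated decay and 4 with a retained intron. An octamer known as the mild cold-responsive element of mouse Cirbp, which the factor SP1 binds, was searched for in RefSeq promoter windows of GRCm38.p6 reaching from 250 bases before to 50 bases after a transcript start. The letters searched were TCCCCGCC, on both strands. In the first of the 2 CIRBP windows, chr10:80167589-80167888 on the plus strand, they were found once, at bases 4 to 11 of the window. Whether this match is the element described for the gene was not tested. That window is shown because it carries these letters, in capitals.
CIRBP: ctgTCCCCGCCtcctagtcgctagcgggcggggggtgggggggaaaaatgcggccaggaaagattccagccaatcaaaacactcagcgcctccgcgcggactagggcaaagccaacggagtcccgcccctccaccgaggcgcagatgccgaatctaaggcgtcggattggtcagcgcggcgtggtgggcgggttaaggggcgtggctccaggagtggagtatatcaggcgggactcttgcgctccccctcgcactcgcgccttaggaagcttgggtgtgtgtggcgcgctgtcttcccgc

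The octamer stood in 5.38% of the 32851 promoter windows and in 9.58% of the 13685 windows of tested genes. Of the 121 windows of tested members 9, or 7.44%, held it. Among the 12 windows of members called higher 2 held it, those of CIRBP and CELF6, and of the 5 windows of members called lower 0 held it. In CELF6 it lies on the minus strand of the window at bases 283 to 290 and overlaps a GC box (GGGCGG). The core of the heat shock element (GAANNTTC) was found in the windows of HNRNPL and of RBFOX1 among the called members. These are 2 of the 12 windows of members called higher, and 0 of the 5 windows of members called lower held it. It stood in 5.68% of the windows of tested genes and in 8.26% of those of tested members. RefSeq windows were matched for 83 of the 94 tested members and 14 of the 15 called, RBM3 being the exception. Such matches describe letters in a window, and binding was not measured.

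Among the SR proteins SRSF5 rose and the other 10 tested members were not called, or 9.09% called, against 10.5% of all tested genes. SRSF5 (chromosome 12, 80945504 to 80950507, plus strand), which promotes exon inclusion and is known in rat as a growth-response gene of regenerating liver, had 315, 318 and 331 CPM in HFD libraries and 221, 234 and 238 CPM in RD libraries. The groups were far apart relative to their spread, with a mean of 321 ± 8.88 CPM in HFD and 231 ± 8.94 CPM in RD (SD, n = 3 each). The rise was 0.48 ± 0.06 in log2, or 1.39-fold (adjusted p = 0.00194), and like that of CIRBP it was called under each of the 18 other settings. Per kilobase SRSF5 took rank 4 among the members in HFD and rank 11 in RD.

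Other SR proteins with an unadjusted p under 0.05 were SRSF12 (0.53 ± 0.19) and SRSF6 (0.15 ± 0.06) with positive estimates and SRSF2 (-0.26 ± 0.09), SRSF9 (-0.21 ± 0.09) and SRSF1 (-0.16 ± 0.07) with negative ones, at adjusted p between 0.0962 and 0.184; they are named here because they make up that count. SRSF2, which binds exonic enhancers and also acts in transcription elongation, was at 115, 116 and 113 CPM in HFD and 126, 128 and 157 CPM in RD, and RD replicate 3 stood above the other 5 libraries. SRSF3, the smallest SR protein, was likewise highest in RD replicate 3, at 187 CPM against 143 and 141 CPM in the other RD libraries, and its log2 change was -0.03 ± 0.12 (95% interval -0.29 to 0.24). The promoter window of SRSF5, chr12:80945249-80945548 on the plus strand of GRCm38.p6, is shown as that of the second member whose call held in every setting, with GC boxes (GGGCGG on either strand), the letters bound by SP1 and related factors, in capitals. GC boxes stood in 60.8% of the windows of tested genes and in 61.2% of the 121 windows of tested members.
SRSF5: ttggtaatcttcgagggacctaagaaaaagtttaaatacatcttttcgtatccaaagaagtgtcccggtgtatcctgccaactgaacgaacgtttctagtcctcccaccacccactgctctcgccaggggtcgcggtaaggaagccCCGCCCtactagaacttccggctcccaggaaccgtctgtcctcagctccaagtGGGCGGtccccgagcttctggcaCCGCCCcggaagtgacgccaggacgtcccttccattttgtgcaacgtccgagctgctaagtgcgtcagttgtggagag

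The kinases of SR proteins did not pass the threshold. Of 7 tested, 0 were called by edgeR, and 1 had an unadjusted p under 0.05, SRPK2, which DESeq2 called and limma-voom did not. SRPK2, which phosphorylates SR proteins in the cytoplasm, was at 230, 221 and 224 CPM in HFD libraries and 260, 274 and 246 CPM in RD libraries, with no overlap (-0.21 ± 0.06, adjusted p = 0.062). Without RD replicate 3 it was called (adjusted p = 0.0178). CLK1, a nuclear kinase of SR proteins with 7 annotated transcripts that retain an intron, had 249, 225 and 215 CPM in HFD and 238, 241 and 211 CPM in RD. Its libraries overlapped fully, and the log2 change was 0.00 ± 0.08 with a 95% interval of -0.18 to 0.17. CLK4, its closest relative, had a log2 change of 0.07 ± 0.08 (-0.11 to 0.26), CLK3 of -0.09 ± 0.08 (-0.27 to 0.10) and CLK2 of -0.13 ± 0.16 (-0.49 to 0.24). SRPK1 had -0.17 ± 0.08 (-0.35 to 0.01), and SRPK3, at 6.78 CPM in HFD and 6.05 CPM in RD, 0.16 ± 0.20 (-0.29 to 0.62).

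Of the TRA2 pair, SR-like activators of exon inclusion, 0 were called by edgeR, DESeq2 or limma-voom, and 0 had an unadjusted p under 0.05. TRA2A was at 103, 96.6 and 86.0 CPM in HFD libraries and at 95.9, 94.1 and 146 CPM in RD libraries. The value of RD replicate 3 was 1.54 times the mean of the other 2 RD libraries, the largest such ratio among the tested members. The log2 change of TRA2A was -0.23 ± 0.16 with all libraries and 0.00 without RD replicate 3, and that of TRA2B was 0.04 ± 0.10.

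In the hnRNP family 3 of 20 tested genes rose and 2 fell, and 15 were not called. That is 25% called, against 10.5% of all tested genes, at a median standard error of 0.065 against 0.12. HNRNPD, also known as AUF1, binds AU-rich elements of unstable transcripts and had 143, 140 and 140 CPM in HFD libraries and 108, 112 and 113 CPM in RD libraries. Its relative HNRNPDL had 195, 189 and 190 CPM in HFD and 148, 153 and 161 CPM in RD. In both genes every HFD library was above every RD library. The log2 changes were of like size, 0.34 ± 0.06 for HNRNPD (adjusted p = 0.00895) and 0.31 ± 0.06 for HNRNPDL (adjusted p = 0.0137). HNRNPD was called under each of the 18 other settings, with adjusted p up to 0.0485, while the call of HNRNPDL ended when RD replicate 2 or any 1 HFD library was dropped (up to 0.0628).

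The HNRNPD and HNRNPDL genes are neighbours on the minus strand of chromosome 5 (99955935 to 99978938 and 100033577 to 100039664), with 54638 bases between them and no other tested gene in that interval. ENOPH1, which starts next to HNRNPDL on the plus strand, was not called (-0.31, adjusted p = 0.184). Whether the rises of HNRNPD and HNRNPDL are independent was not tested. Their promoter windows, chr5:99978889-99979188 and chr5:100039173-100039472 on the minus strand of GRCm38.p6, are shown for comparison of the neighbours, with GC boxes in capitals; each window holds 3.
HNRNPD: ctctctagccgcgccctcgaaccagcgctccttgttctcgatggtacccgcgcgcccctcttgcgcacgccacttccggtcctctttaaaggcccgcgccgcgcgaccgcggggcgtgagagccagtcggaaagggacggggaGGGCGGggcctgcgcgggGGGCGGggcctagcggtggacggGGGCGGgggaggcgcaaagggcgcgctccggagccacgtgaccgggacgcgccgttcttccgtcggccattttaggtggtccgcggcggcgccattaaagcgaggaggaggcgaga
HNRNPDL: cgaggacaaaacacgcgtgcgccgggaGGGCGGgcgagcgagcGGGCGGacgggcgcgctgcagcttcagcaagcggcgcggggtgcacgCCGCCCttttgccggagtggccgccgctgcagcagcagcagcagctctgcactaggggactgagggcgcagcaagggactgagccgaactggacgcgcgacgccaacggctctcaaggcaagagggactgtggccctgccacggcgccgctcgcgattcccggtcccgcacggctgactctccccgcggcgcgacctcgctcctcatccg

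HNRNPL, which binds CA-rich RNA, rose by less. It had 226, 219 and 230 CPM in HFD libraries and 189, 188 and 193 CPM in RD libraries, without overlap (0.25 ± 0.06, adjusted p = 0.0271). When single libraries were dropped, this call held only for the fit lacking RD replicate 3 (otherwise adjusted p up to 0.12). The falls were those of HNRNPM and HNRNPC. HNRNPM, a regulator of exon skipping, had 137, 134 and 125 CPM in HFD and 158, 168 and 187 CPM in RD (-0.37 ± 0.08, adjusted p = 0.0172). HNRNPC, which binds uridine tracts and shields introns, had 166, 153 and 159 CPM in HFD and 191, 194 and 240 CPM in RD (-0.39 ± 0.09, adjusted p = 0.0267). The groups of both genes are separate, and RD replicate 3 is the highest library in both. Dropping HFD replicate 2 or HFD replicate 3 ended the call of HNRNPM (adjusted p up to 0.0899), and dropping any 1 HFD library that of HNRNPC (up to 0.115).

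The 4 hnRNP genes with the highest level per kilobase in RD were not called. HNRNPA2B1, at 547 ± 28.0 CPM in HFD and 613 ± 13.2 CPM in RD, did not overlap between groups but was not called (-0.16 ± 0.06, adjusted p = 0.106). HNRNPK had 328 ± 4.28 CPM in HFD and 322 ± 2.21 CPM in RD, and HNRNPU 553 ± 12.6 CPM in HFD and 566 ± 38.7 CPM in RD. HNRNPH1 had 330 ± 14.1 CPM in HFD and 354 ± 16.8 CPM in RD (SD, n = 3 each for these 4 genes). HNRNPA1, an exon silencer that has many processed copies in the genome, so that its count is uncertain, had 215, 216 and 212 CPM in HFD and 189, 190 and 177 CPM in RD and missed the threshold (0.21 ± 0.06, adjusted p = 0.0549).

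Among the tissue-specific regulators RBFOX1 and CELF6 rose. RBFOX1, which binds the motif GCAUG and controls neuronal and muscle exons, had 81.2, 79.7 and 77.9 CPM in HFD libraries and 59.8, 40.5 and 39.5 CPM in RD libraries. The HFD libraries lie close together, and RD replicate 1 stands between them and the other RD libraries. The log2 change was 0.77 ± 0.14, or 1.71-fold (adjusted p = 0.0105), and dropping HFD replicate 2 or HFD replicate 3 ended the call (adjusted p up to 0.0512). The relative RBFOX2 is about as high in both groups, at 328 ± 4.00 CPM in HFD and 332 ± 15.9 CPM in RD (SD, n = 3 each), with a 95% interval of -0.15 to 0.12 in log2, and RBFOX3, a marker of mature neurons, had 13.7, 25.6 and 24.9 CPM in HFD and 31.6, 17.0 and 17.5 CPM in RD. RBFOX3 thus overlapped between the groups (-0.04 ± 0.28). POMC, the hormone gene of corticotrophs and melanotrophs, had 5792, 13677 and 11155 CPM in HFD and 9447, 5526 and 5537 CPM in RD. In RD, replicate 1 was the highest library for POMC, RBFOX1 and RBFOX3, and in HFD replicate 1 was the lowest for POMC and RBFOX3 but the highest for RBFOX1. COL25A1, from the myelin and glial list, had 39.8, 84.8 and 79.0 CPM in HFD and 109, 61.2 and 71.5 CPM in RD, and ranked the libraries as RBFOX3 did. Its list did not move as 1, since MBP was highest in HFD replicate 3. The part of cells marked by POMC or by COL25A1 in the RBFOX values was not tested. The RBFOX1 gene spans 5885355 to 7411526 on chromosome 16, and a sense intronic RNA is annotated inside it.

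CELF6, a regulator of alternative exons found in brain, had 91.9, 87.6 and 98.3 CPM in HFD and 71.0, 73.5 and 80.0 CPM in RD (0.31 ± 0.08, adjusted p = 0.0392). The other 5 CELF genes were not called, with log2 changes from -0.16 to 0.14. NOVA2, a neuronal regulator, had 140, 139 and 145 CPM in HFD and 127, 117 and 118 CPM in RD, which do not overlap, and narrowly missed the threshold (0.23 ± 0.06, adjusted p = 0.0504). NOVA1 had a log2 change of 0.00 ± 0.10. The PTBP genes, whose switch marks neuronal differentiation, held 0 called of 3 by edgeR, DESeq2 and limma-voom and 0 at an unadjusted p under 0.05, with log2 changes from -0.04 to -0.01. The MBNL genes, regulators of muscle and neuronal maturation, held 0 called of 3 by the same tools and 2 at an unadjusted p under 0.05, with log2 changes from -0.28 to -0.05. Of the single libraries, only RD replicate 3 could be dropped without ending the call of CELF6 (otherwise adjusted p up to 0.163).

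**Figure D3:**
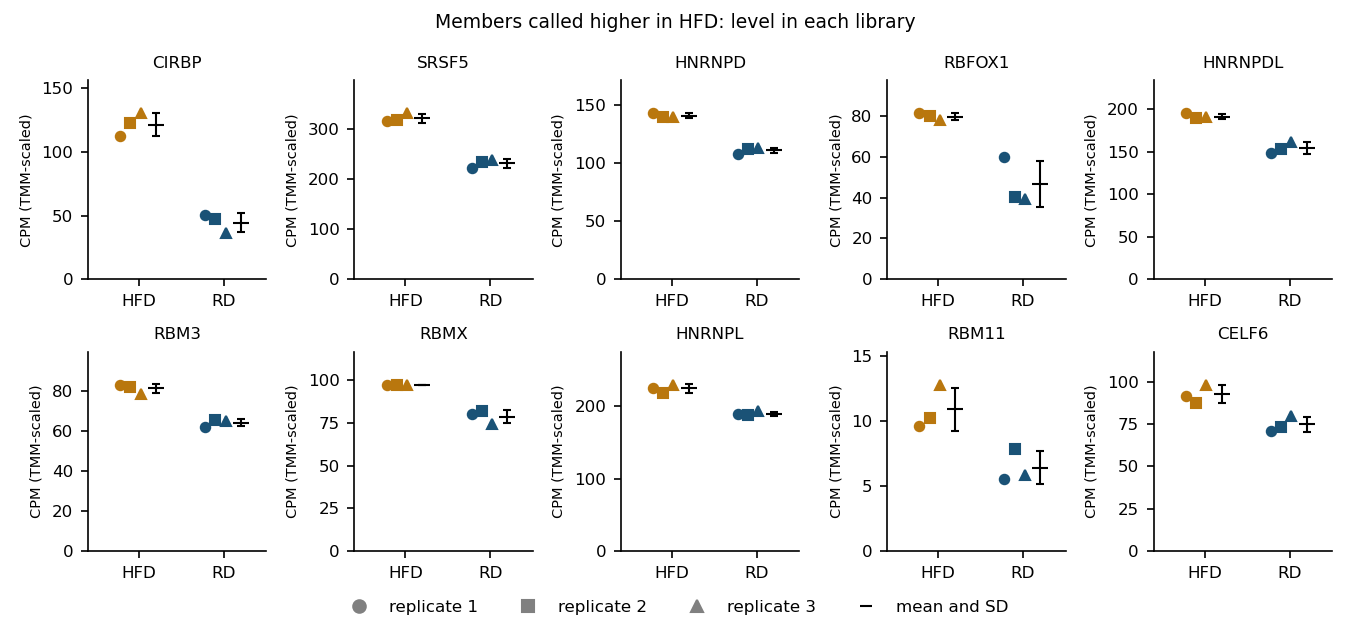
TMM-scaled CPM of the 10 members called higher, 1 panel per gene, with HFD at the left and RD at the right; symbols are replicates 1 to 3, and the bar at the side of each group is its mean with SD (n = 3). No panel shows overlap, and RBFOX1 and RBM11 have the widest relative spread in RD.

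Of the 35 tested RBM genes other than RBM3, 2 rose, 3 fell and 30 were not called, or 14.3% called, against 10.5% of all tested genes. RBMX, also known as hnRNP G, had 97.4, 97.5 and 97.3 CPM in HFD libraries and 80.1, 81.8 and 74.5 CPM in RD libraries (0.31 ± 0.07, adjusted p = 0.0245). Part of its reads may be shared with RBMXL1, an intronless copy, which had a log2 change of 0.09 ± 0.13. RBM11, a tissue-restricted splicing regulator known from brain and testis, is a low transcript, with 9.64, 10.2 and 12.8 CPM in HFD and 5.51, 7.88 and 5.84 CPM in RD. Its groups did not overlap, and the log2 change was 0.76 ± 0.19 (adjusted p = 0.034). With a library left out, RBM11 was called only without RD replicate 2, and RBMX only without RD replicate 1 or 3 (otherwise adjusted p up to 0.15 for RBM11 and 0.0956 for RBMX).

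Of the 3 falls, RBM28, a nucleolar protein associated with spliceosomal small nuclear RNAs, had 60.5, 58.1 and 52.7 CPM in HFD and 72.2, 70.8 and 77.0 CPM in RD (-0.36 ± 0.08, adjusted p = 0.0237). RBM14, a coactivator and paraspeckle protein, had 82.5, 71.8 and 80.2 CPM in HFD and 94.8, 96.9 and 100 CPM in RD (-0.32 ± 0.08, adjusted p = 0.0309). RBM6, a regulator of alternative exons, had 169, 161 and 154 CPM in HFD and 185, 189 and 198 CPM in RD (-0.24 ± 0.06, adjusted p = 0.0425). All 3 separate the groups, with RD replicate 3 highest in each. RBM14 lies on chromosome 19 (4800569 to 4811634, minus strand) beside RBM4, and GENCODE M21 annotates a gene that spans RBM14 on the same strand, so the reads of RBM14 may be shared. RBM4 and RBM4B, closely similar neighbours, had log2 changes of -0.16 ± 0.17 and -0.12 ± 0.08. RBM5, which lies 2562 bases from RBM6 on the minus strand of chromosome 9, had a log2 change of 0.04 ± 0.06, and the difference between these neighbours was not tested. Dropping HFD replicate 2 or HFD replicate 3 ended the call of RBM28 (adjusted p up to 0.111), and dropping RD replicate 2 or any 1 HFD library those of RBM14 and RBM6 (up to 0.17). With library size as the only scaling RBM14 and RBM6 were not called, and RBM6 was not called either with upper quartile scaling (adjusted p = 0.0508) or with the GC content trend removed (adjusted p = 0.0518).

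**Figure D4:**
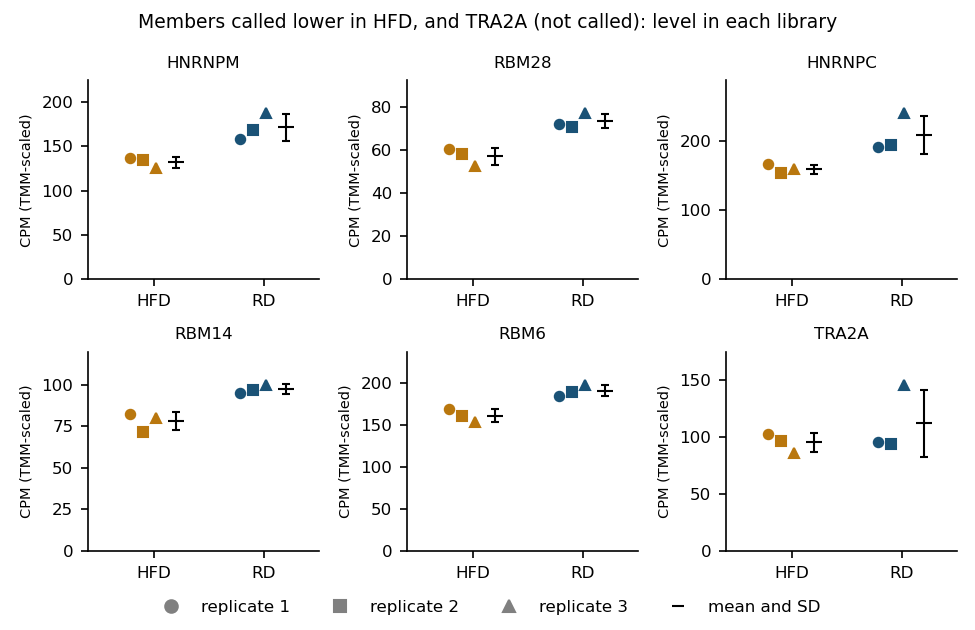
TMM-scaled CPM of the 5 members called lower and of TRA2A, which was not called, with HFD at the left and RD at the right in each panel; symbols are replicates 1 to 3, and the bar is the mean with SD (n = 3). RD replicate 3, the triangle, is the highest library in every panel.

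The RD libraries were less alike than the HFD libraries in these genes. The median coefficient of variation of the tested members was 5.27% over the HFD libraries and 7.49% over the RD libraries. RD replicate 3 was the highest of the 6 libraries for 43 members, or 45.7%, against 28% of all tested genes, and for 29 members it was at least 10% above both other RD libraries. Neither the coefficient of variation nor the 10% count was taken over all tested genes. Among the listed heat shock genes RD replicate 3 was the highest library for 75%. The median deviation of the members from their mean over the 6 libraries was 0.075 in log2 in RD replicate 3 and lay between -0.04 and 0.01 in the other 5. For all 5 members called lower, and for 9 of the 12 members with negative changes that separated the groups without being called, RD replicate 3 was the highest library. In each of these members the highest library was bound to be an RD library, since every RD library lay above every HFD library. The share of 28% is therefore no measure for them, and none was taken over all genes lower in HFD. Without RD replicate 3, 16 members were called, 10 higher and 6 lower. Of the 15 calls 14 remained, RBM11 was lost, and SRPK2 and HNRNPA0 were gained. RD replicate 3 also had the highest heat shock sum, and whether the 2 deviations are linked was not tested.

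**Figure D5:**
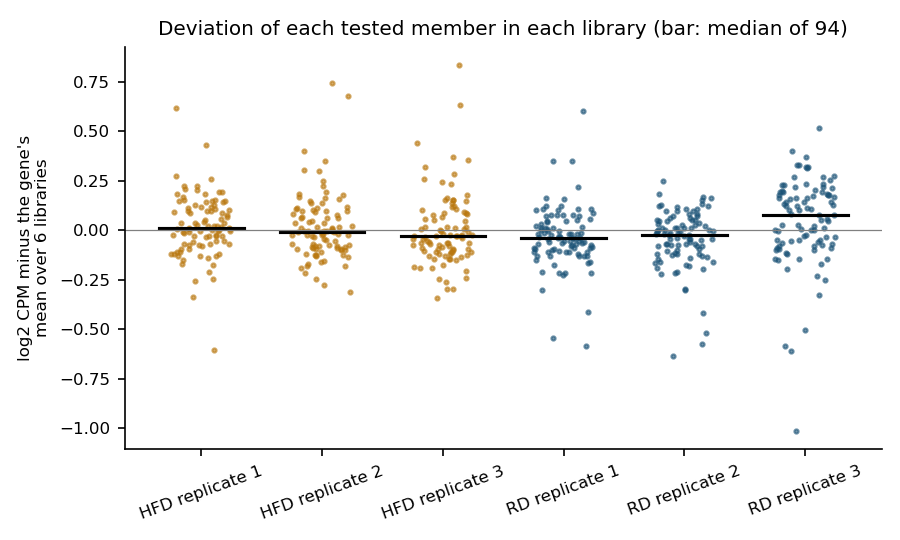
Deviation of each of the 94 tested members, in log2 CPM, from its own mean over the 6 libraries, 1 dot per member, with HFD libraries (orange) at the left, RD libraries (blue) at the right and a bar at the median. The bar of RD replicate 3 stands at 0.075, above the other 5, while single members such as CIRBP lie far below 0 there.

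The core of the spliceosome and other splicing regulators were read from lists made with earlier results of these data known. Of 71 tested core components 2 rose, 1 fell and 68 were not called, or 4.23% called, with a median log2 change of -0.07. SNRNP70, the U1 protein that contacts SR proteins, had 421, 423 and 412 CPM in HFD and 330, 330 and 314 CPM in RD (0.37 ± 0.06, adjusted p = 0.00471). The fall was that of DHX16, a helicase that activates the spliceosome (-0.55 ± 0.09, adjusted p = 0.00795), and the other rise that of the minor spliceosome gene SNRNP25 (0.76 ± 0.21, adjusted p = 0.0461), whose call ended whichever library was dropped. TXNL4A was not called (-0.21 ± 0.07, adjusted p = 0.096). The call of DHX16 ended on dropping HFD replicate 3 (adjusted p = 0.0504). RD replicate 3 was the highest library for 43 of the 71 core components, or 60.6%.

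Of 76 tested regulators outside the families above 5 rose and 4 fell, or 11.8%, with a median log2 change of -0.01. RD replicate 3 was the highest library for 33 of the 76, or 43.4%. LUC7L2, a U1-associated factor, rose by 0.31 ± 0.06 (adjusted p = 0.0107), and YBX1, which binds and packages mRNA, fell by 0.35 with a standard error of 0.07 (adjusted p = 0.0137). The largest change of the list was that of TCERG1L, a relative of an elongation and splicing factor, with 11.8, 7.95 and 8.92 CPM in HFD and 32.3, 39.5 and 47.3 CPM in RD (-2.05 ± 0.18, adjusted p = 0.000616). TCERG1L stayed called whichever library was dropped. Dropping HFD replicate 2 ended the call of LUC7L2 (adjusted p = 0.0645), and dropping HFD replicate 2 or HFD replicate 3 that of YBX1 (up to 0.0691). Of 10 nuclear or non-polyadenylated RNAs, MIAT rose (0.43 ± 0.09, adjusted p = 0.0142) and GAS5 fell (-0.32 ± 0.08, adjusted p = 0.0394). Dropping HFD replicate 1 or HFD replicate 3 ended the call of MIAT (adjusted p up to 0.0718). That of GAS5 ended with library size as the only scaling (adjusted p = 0.0617) and on dropping any 1 HFD library (adjusted p up to 0.163) or RD replicate 2 (0.0784). The sums of the list were 49421 to 53695 CPM in HFD and 48466 to 54545 CPM in RD.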

How the data were processed

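RNA of whole pituitary was extracted with a column kit and polyadenylated RNA selected with oligo-dT, per the labels' protocols. RN7SK and RPPH1, from the list of nuclear or non-polyadenylated RNAs, still averaged 9476 and 3030 CPM in HFD and 8819 and 2876 CPM in RD. How much RNA in the libraries was not polyadenylated, and its part in the counts of the members, was not tested. The table deposited by the authors holds raw whole-number read counts per gene symbol, without normalization; the build was mm10, per the submitters' processing notes, and the sources used here name no aligner, counter, annotation or strand setting. Symbols are upper case, and all 97 member symbols matched 1 GENCODE M21 gene each.

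Counts were tested with edgeR 4.0.16 (R 4.3.3; quasi-likelihood, two-sided, TMM factors, minimum count 10, minimum total 15, intercept and diet, Benjamini-Hochberg, threshold 0.05). Alternatives were DESeq2 1.42.0, limma-voom (limma 3.58.1), other scalings and filters, a threshold of 0.01, GC content or transcript length trends removed (loess, span 0.4), a replicate block, each library left out and, added after seeing the data, halved counts. The fit was tested on simulated data. Chi-square per degree of freedom between replicates ran from 4.48 to 21.1, so no library was a copy.

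Between 64% and 67% of counts from 1 to 10 were even, so both mates of a pair may have been counted, and no counting intervals are given. At these totals 3 counts equal 0.166 to 0.211 CPM. The members and lists were chosen with earlier results of these data known. The rule for named genes took CIRBP, RBM3, the CLK, SRPK and TRA2 genes, up to 10 other members called in each direction by smallest p, the 3 nearest misses and up to 4 genes of each list; others are named for their level, their position or a count they belong to. The 4 untested rows were RBM15 (1 of its 2 rows), RBM44, RBM46 and RBMXL2. Some genes of the lists are not reported here.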

Additional observations from a re-analysis of the deposited data

How the results depend on the processing

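No called member changed sign under any of the 18 alternatives. CIRBP, SRSF5 and HNRNPD were called in all of them. With library size only, 13 members were called higher and 3 lower (10 and 5 with TMM), and 72.5% of all calls were higher against 56% with TMM. That scaling moved the median log2 change of all genes to 0.065, from -0.002, and changed the sign of 18 uncalled members. At an adjusted p under 0.01, 412 genes, 3 members higher, 0 lower and 2 other splicing regulators were called. DESeq2 called 16 members and limma-voom 15. NOVA2 was called under 5 alternatives and HNRNPA1 under 4. The uncalled CLK1 (-0.06 to 0.07), CLK2 (-0.23 to 0.02) and TRA2B (-0.04 to 0.15) changed sign between alternatives. With the replicate block 808 genes were called, 4 members higher and 0 lower. Replicate numbers did not pair the libraries (correlations of deviations between same-numbered libraries -0.13, 0 and -0.1, and 0 of 3 HFD libraries correlated best with its own number), so the block is no measure of a weaker effect. With each library left out in turn, all genes called ranged from 431 to 1523, members higher from 3 to 10, members lower from 0 to 6, core spliceosome genes from 1 to 2 and other splicing regulators from 2 to 10. The lowest member counts came without HFD replicate 2 (3 higher, 0 lower) and without HFD replicate 3 (3 higher, 0 lower), against 4 and 2 without HFD replicate 1, 6 and 3 without RD replicate 2, 7 and 5 without RD replicate 1, and 10 and 6 without RD replicate 3. The cause was not tested beyond the smaller number of libraries.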

Other observations

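RBM46, an RNA-binding gene known from the germ line, had too few counts for the test, with 3, 2 and 6 counts in HFD libraries and 10, 11 and 12 counts in RD libraries. RBM44 had 0, 2 and 2 counts in HFD libraries and 0 in each RD library. RBMXL2 and the first row of RBM15 were listed at 0 in every library. They were chosen after their values were seen, because they are the members left untested.

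Of the 47 tested members for which GENCODE M21 annotates a transcript subject to nonsense-mediated decay, 8 rose and 1 fell in HFD. Of the 47 without such a transcript 2 rose and 4 fell. The median log2 changes were -0.01 and -0.04, and no test was made. Among all tested genes 5.87% were called higher and 4.61% lower. Genes outside the set were not split by transcript type, so the counts cannot be set against a share for that type. For transcripts with a retained intron the counts were 7 higher and 4 lower of 68 members with one, and 3 higher and 1 lower of 26 without.

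WDR13, which lies on the X chromosome next to RBM3 (8123301 to 8132892, RBM3 at 8138975 to 8145880, both on the minus strand), was called higher, with a log2 change of 0.38 (adjusted p = 0.0338). The other tested genes within 50000 bases of RBM3, WAS, TBC1D25, EBP and PORCN, were not called (-0.06, -0.01, -0.03 and 0.21). WDR13 was the only called gene among the annotated neighbours of all called members at that distance, a smaller share than the 10.5% called among all tested genes. The neighbours of CIRBP within 50000 bases, STK11, CBARP, MIDN and EFNA2, were not called, with log2 changes of 0.12, -0.07, 0.36 and -0.03.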
